A study of Mus musculus with 7 samples.

Results

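The genes that write, erase and read N6-methyladenosine (m6A) were followed in bulk RNA-seq of preleptotene-enriched mouse testes, in wild-type pups and in pups that lack MEIOC. They are 9 genes of the 21928 matched to the annotation, taken by name from a list: the writers *Mettl3*, *Mettl14* and *Wtap*, the erasers *Alkbh5* and *Fto*, and the readers *Ythdc1*, *Ythdf1*, *Ythdf2* and *Ythdf3*. Transcripts of all 9 were detected in every library, and the estimated counts of a member ranged from 643 to 3341 in a library. Of the 9, only *Alkbh5* differed past the threshold between the groups, and it was 1.40-fold higher in wild type. This is 11.1% of the members, equal to the 11.1% called over all tested genes (1513 of 13630). The *Alkbh5* call was lost when any single library other than wild-type replicate 1 was dropped.

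m6A is a methyl mark that cells place on adenosines of messenger RNA. METTL3 is the catalytic subunit of the methyltransferase, METTL14 pairs with it and holds the RNA, and WTAP brings the pair to nuclear speckles. ALKBH5 and FTO are demethylases, and proteins with a YTH domain bind the mark and direct splicing, export, translation or decay of the message. In the male germline, the mark and its machinery are known to be needed for spermatogenesis, and YTHDC2, a further YTH protein, is a known partner of MEIOC in the switch from mitosis to meiosis.

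Each of the 7 libraries was made from 1.5 testes of a single C57BL/6N pup, of which 4 were wild type and 3 *Meioc*-null; the null allele was *Meioc* tm1.1Dpc, backcrossed to that strain. Every pup received WIN 18,446, which blocks retinoic acid synthesis, at 0.1 mg/g of body weight from P2 to P8, then retinoic acid at 0.0125 mg/g on P9, and was sampled 6.75 days after it. Whole testes were used, so somatic cells are part of every sample, and in such bulk samples fewer cells of a type and less RNA per cell cannot be told apart. The comparison asked how much transcript of each gene the testis held with and without MEIOC, when germ cells stood at the entry to meiosis.

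The libraries held 12537852 to 20552702 estimated counts. The null allele still gave *Meioc* counts, at 299 to 412 CPM against 466 to 718 CPM in wild type (CPM, the TMM-scaled count of a gene relative to the total of its library). The summed level of the 6 germ cell markers was 2233 to 2439 CPM with MEIOC and 1536 to 1707 CPM in *Meioc*-null testes, and 3 of them were called higher in wild type (*Dazl*, *Mael* and *Tex101*). *Dazl* made the largest part of the sum, with means of 1101 CPM in wild type and 735 CPM in null. The other 3 were not called. Their log2 fold changes, wild type over null, were 0.24 for *Ddx4*, 0.17 for *Dmrt1* and, in the other direction, -0.24 for *Tdrd1* (edgeR adjusted p = 0.0813, 0.205 and 0.148). The 6 preleptotene and meiotic markers gave a sum of 1039.8 to 2037 CPM in the wild-type libraries, against 521 to 714 CPM in null. Wild-type replicate 1 had the lowest sum of its group. *Smc1b* made the largest part, with means of 812 CPM in wild type and 244 CPM in null. Of the 6, 4 were called higher in wild type. The other 2, *Stra8* and *Rec8*, overlapped between the groups (log2 fold changes 1.14 and 0.23, edgeR adjusted p = 0.0948 and 0.481). Sums of Sertoli, Leydig, peritubular myoid, endothelial and macrophage markers overlapped between the groups, although *Gata4* (Sertoli) and *Des* (myoid) were called lower in wild type. No marker of the 7 lists was at 0 in all libraries, and the part of these markers in the differences below was not tested.

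Transcripts annotated for the reader genes differ in their first and last exons and in the internal exons they include; the internal junctions are shown here because they change the coding sequence. *Ythdf2*-203 holds an exon of 1584 bases, on the minus strand of chr4 on GRCm38, that carries most of the coding sequence, and *Ythdf2*-201 joins the exon before it straight to the last exon. In the 2 lines below, the shared end of the third exon (chr4:132210752-132210781) is in lower case. The capitals mark the first 30 bases of the long exon (chr4:132205686-132205715) in *Ythdf2*-203, and the coding end of the last exon with its stop codon (chr4:132186924-132186947) in *Ythdf2*-201.
Ythdf2-203: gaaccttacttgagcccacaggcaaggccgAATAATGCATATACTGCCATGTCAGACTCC
Ythdf2-201: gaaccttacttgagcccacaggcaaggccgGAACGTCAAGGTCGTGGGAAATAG
The coding length falls from 1737 bases in *Ythdf2*-203 to 153 bases in *Ythdf2*-201. Only 29 of the 31-base words of *Ythdf2*-201 occur in no other deposited transcript, against 3198 of *Ythdf2*-203. Here and below, words were searched for in the deposited protein-coding transcripts only.

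For each of the other readers, an internal exon that some transcripts lack is shown in capitals, with 15 bases of the neighbouring exons on each side. The exon of *Ythdc1* (54 bases, chr5:86820633-86820686, plus strand) is part of *Ythdc1*-203 and absent from *Ythdc1*-202. That of *Ythdf3*-202 (33 bases, chr3:16203187-16203219, plus strand) is in neither *Ythdf3*-201 nor *Ythdf3*-203. The exon of *Ythdf1*-202 (81 bases, chr2:180919906-180919986, minus strand) is absent from *Ythdf1*-201. All 3 lie within the annotated coding sequence.
Ythdc1-203: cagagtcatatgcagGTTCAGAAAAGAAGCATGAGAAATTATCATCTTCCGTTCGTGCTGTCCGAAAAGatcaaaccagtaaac
Ythdf3-202: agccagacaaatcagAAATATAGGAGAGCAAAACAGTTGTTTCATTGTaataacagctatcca
Ythdf1-202: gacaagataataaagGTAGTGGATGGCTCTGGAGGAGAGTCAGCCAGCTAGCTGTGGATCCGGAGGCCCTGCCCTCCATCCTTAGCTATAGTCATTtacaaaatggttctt

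Levels per length were compared in TPM, in which a count is divided by transcript length and the library by its sum. *Wtap* was the most abundant member at 173 ± 15.4 TPM (SD over the 7 libraries), and its lowest library lay above the highest of every other member. The readers followed, with mean levels of 74.3 TPM for *Ythdf3*, 66.5 TPM for *Ythdc1*, 56.2 TPM for *Ythdf1* and 52.4 TPM for *Ythdf2*. *Mettl3* (44.1 TPM), *Mettl14* (35.6 TPM), *Alkbh5* (31.3 TPM) and *Fto* (22.9 TPM) came last. Between neighbours in this order the ranges of the libraries overlapped for all but *Wtap* over *Ythdf3* and *Mettl3* over *Mettl14*. *Mettl3* exceeded *Mettl14* in each of the 7 libraries, by a TPM ratio of 1.06 to 1.45. *Alkbh5* exceeded *Fto* in each as well, by a TPM ratio of 1.43 to 1.87 in wild type and 1.04 to 1.18 in null. The demethylase genes thus stood closer to each other in level in the 3 null libraries than in any wild-type library. This ratio was not tested or compared with that of other gene pairs. It rests on the same *Alkbh5* and *Fto* values as the comparisons below, so it is not a separate result.

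**Figure D1:**
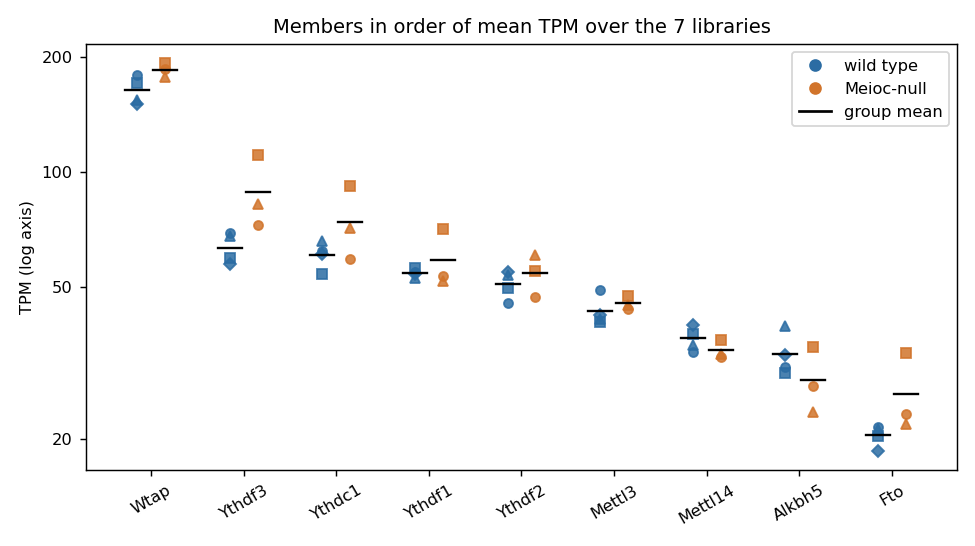
TPM (log axis) of the 9 members, in order of their mean over the 7 libraries, with 1 point per library and a line at each group's mean. *Wtap* stands above all other members, *Fto* has the lowest mean, and most neighbours overlap.

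The threshold was an adjusted p of 0.05 in the quasi-likelihood test of edgeR, with Benjamini-Hochberg adjustment over 13630 tested genes. Of the 9 members 1 passed it, a share of 11.1%. Over all tested genes 1513 were called, which is also 11.1%; calls higher in wild type made up 7.77% of tested genes and calls lower in wild type 3.33%. In CPM, the groups did not overlap for 3 of the 9 members, *Mettl3*, *Mettl14* and *Alkbh5*, all higher in wild type, against 26.2% of all tested genes. The members' median log2 fold change (wild type over *Meioc*-null) was 0.16, with 6 members above 0, and the median of all tested genes was -0.01, with 6694 of 13630 above 0. An unadjusted p under 0.05 was reached by 4 of the 9 members and by 4133 of all tested genes (30.3%). With 9 genes, these shares are not a result about the set. Scaling moved the balance of the directions: wild type was the higher group for 1059 of 1513 called genes with TMM (70%), for 814 of 1713 with library size only (47.5%) and for 440 of 2522 on log2(TPM + 1) (17.4%).

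**Figure D2:**
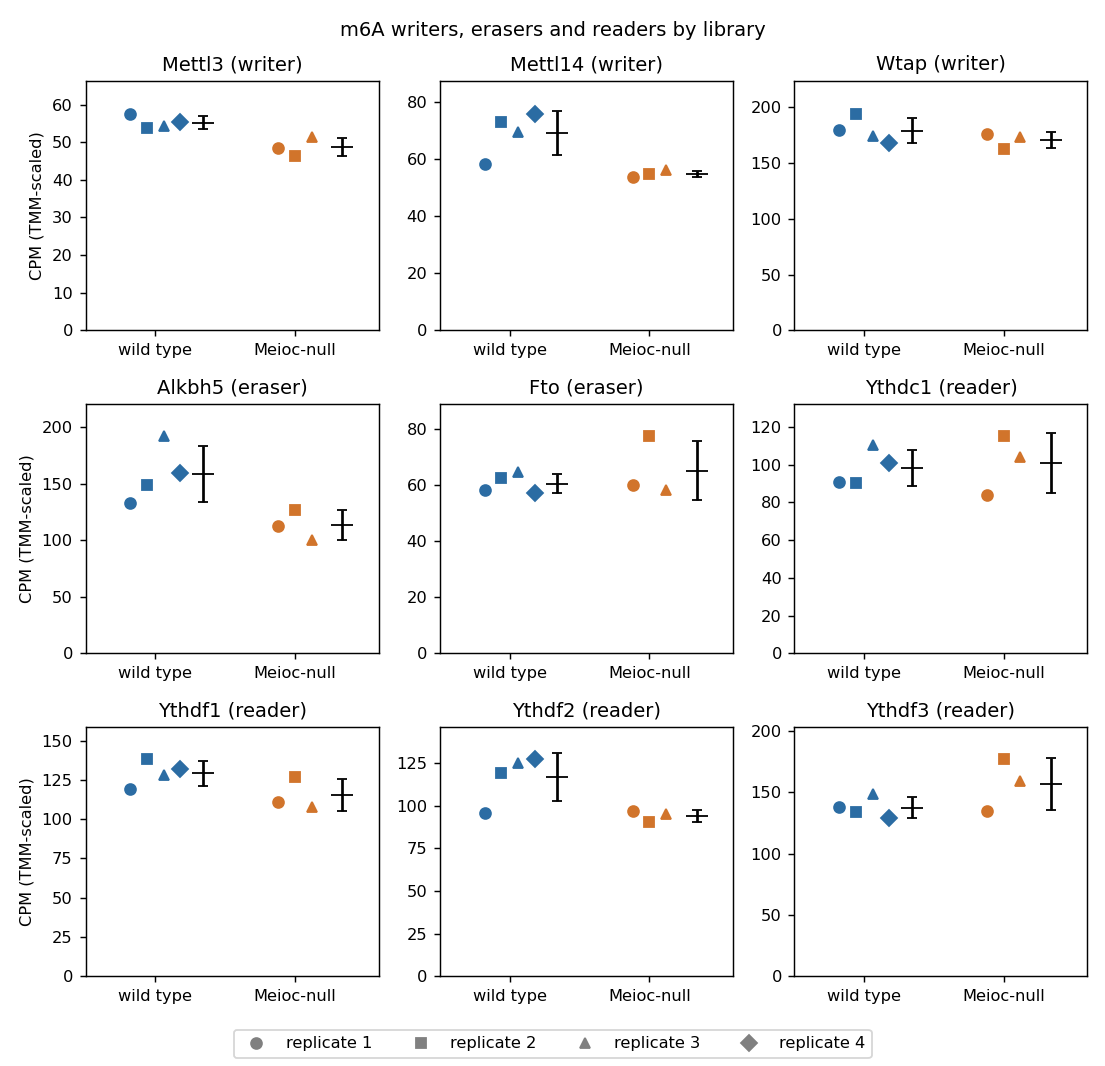
CPM of each member in every library, from 0, with markers for the replicate numbers and bars for the mean and SD of each group (4 wild type, 3 *Meioc*-null). The groups are separate for *Mettl3*, *Mettl14* and *Alkbh5* and overlap for the other 6.

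Among the writers, *Mettl3* (ENSMUSG00000022160, chr14:52294841-52305128, minus strand) was measured at 57.6, 53.7, 54.2 and 55.3 CPM in wild-type replicates 1 to 4 and at 48.4, 46.4 and 51.3 CPM in null replicates 1 to 3. Every wild-type library lay above every null library, by a small margin. The difference was 1.13-fold (log2 fold change 0.18 ± 0.074, SE; 95% interval of the fold 1.01 to 1.27), and it did not pass the threshold (edgeR adjusted p = 0.137).

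*Mettl14* (ENSMUSG00000028114, chr3:123368297-123386108, minus strand), the RNA-holding partner of METTL3, was at 58.2, 73.1, 69.4 and 76.0 CPM in wild type and at 53.8, 54.7 and 56.1 CPM in null. The null libraries lay close together, and wild-type replicate 1 sat nearer to them than to the rest of its group. Its log2 fold change of 0.34 ± 0.0981 (1.26-fold) was just outside the threshold (edgeR adjusted p = 0.0557). *Mettl14* was called without wild-type replicate 1 (log2 fold change 0.41, edgeR adjusted p = 0.00967) and by DESeq2 on the same genes (0.33, adjusted p = 0.0297). It was called in 3 of 17 alternatives in all, and its log2 fold change was above 0 in each of them.

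*Wtap* (ENSMUSG00000060475, chr17:12966796-12994169, minus strand) was at 179, 194, 174 and 168 CPM in wild type and at 176, 162 and 173 CPM in null. The groups overlapped, and the 95% interval of the fold was 0.931 to 1.18 (edgeR adjusted p = 0.576). The writers as a group therefore gave 0 of 3 calls by edgeR, 2 of 3 at an unadjusted p under 0.05 (30.3% of all tested genes), and log2 fold changes from 0.07 to 0.34.

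Of the erasers, *Alkbh5* (ENSMUSG00000042650, chr11:60536381-60558512, plus strand) was at 133, 149, 192 and 160.1 CPM in wild type and at 113, 127 and 100.4 CPM in null. All wild-type libraries were above all null libraries, and replicate 3 was the highest of the wild-type group and the lowest of the null group. The log2 fold change was 0.48 ± 0.13 (1.40-fold, 95% interval 1.14 to 1.71, edgeR adjusted p = 0.043). The call did not hold in 6 of the 7 fits that left out 1 library and held only without wild-type replicate 1; across these fits the log2 fold change was 0.38 to 0.57 and the edgeR adjusted p was 0.0179 to 0.141. It held in both DESeq2 fits, with RLE, with length-scaled counts and under both other filters. With library size only the adjusted p was 0.0565 (log2 fold change 0.40), and with limma on log2(TPM + 1) it was 0.258.

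The deposited table lists a single transcript for *Alkbh5*, *Alkbh5*-201, so its count does not depend on how reads were divided between listed transcripts of the gene. Of its 31-base words, 99% occur in no other deposited transcript. Transcripts outside the table, such as non-coding ones, were not searched. In TPM *Alkbh5* was at 29.8 to 39.6 in wild type and 23.5 to 34.8 in null, and here the groups overlapped. On log2(TPM + 1) the median of all tested genes shifted to -0.23. *Alkbh5* was at 0.22 on that scale, 0.45 above the median, close to its value from counts.

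*Fto* (ENSMUSG00000055932, chr8:91313525-91668439, plus strand), the other demethylase gene, was at 58.2, 62.4, 64.5 and 57.0 CPM in wild type, against 60.1, 77.3 and 58.1 CPM in null. Null replicate 2 was the highest library, and the other 6 overlapped. The log2 fold change was -0.11 ± 0.109 (95% interval of the fold 0.785 to 1.10, edgeR adjusted p = 0.539), and without null replicate 2 it was 0.03. Whether *Alkbh5* and *Fto* differed in their response was not tested.

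The reader *Ythdc1* (ENSMUSG00000035851, chr5:86804221-86836659, plus strand), the nuclear YTH protein known for its part in splicing and export, was at 90.9, 90.5, 110.3 and 101 CPM in wild type, against 83.9, 115 and 104 CPM in null. The null libraries held both the lowest and the highest value. No difference passed the threshold (log2 fold change -0.04 ± 0.118, 95% interval of the fold 0.813 to 1.17, edgeR adjusted p = 0.864).

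*Ythdf1*, *Ythdf2* and *Ythdf3* encode the closely related cytoplasmic readers. *Ythdf1* (ENSMUSG00000038848, chr2:180904377-180920949, minus strand) was at 119, 138, 128 and 132 CPM in wild type, against 111, 127 and 108 CPM in null. Only null replicate 2 reached into the wild-type range. The difference on the log2 scale was 0.16 ± 0.0878 (95% interval of the fold 0.978 to 1.28, edgeR adjusted p = 0.239).

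*Ythdf2* (ENSMUSG00000040025, chr4:132184912-132212303, minus strand), known for driving decay of m6A-bearing messages, was at 95.9, 119, 125 and 127 CPM in wild type, against 96.6, 90.1 and 95.1 CPM in null. Wild-type replicate 1 lay within the range of the null libraries, as it lay nearest to them for *Mettl14*. The log2 fold change was 0.32 ± 0.105 (1.24-fold, edgeR adjusted p = 0.0781), and without wild-type replicate 1 it was 0.40 (edgeR adjusted p = 0.0103). DESeq2 on the same genes called it as well (0.31, adjusted p = 0.0476). With counts scaled for transcript length the log2 fold change was 0.14 (edgeR adjusted p = 0.482). The short *Ythdf2*-201 held a larger share of the gene in null replicates 2 and 3.

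*Ythdf3* (ENSMUSG00000047213, chr3:16183212-16217037, plus strand) had the most negative log2 fold change of the members. It was at 138, 134, 149 and 129 CPM in wild type, against 135, 177 and 159 CPM in null, with null replicate 2 the highest and null replicate 1 inside the wild-type range. The log2 fold change was -0.20 ± 0.101 (0.874-fold, edgeR adjusted p = 0.222). In TPM the groups were separate, at 57.5 to 69.1 in wild type and 72.8 to 111 in null, and limma on log2(TPM + 1) called it at -0.46 (adjusted p = 0.0456). The share of all genes whose groups are separate in TPM was not computed. Limma on log2(TPM + 1) called 2522 of 13630 tested genes, 2082 of them lower in wild type. Relative to the median of all genes on that scale the difference was -0.23. The 4 readers gave 0 calls by edgeR, 1 of 4 at an unadjusted p under 0.05 (*Ythdf2*), near the 30.3% of all tested genes, and log2 fold changes of both signs.

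Null replicate 2 had the highest CPM of the null group for *Fto*, *Ythdc1*, *Ythdf1*, *Ythdf3* and *Alkbh5* and the lowest for *Mettl3*, *Wtap* and *Ythdf2*. Without it the log2 fold changes of *Fto* and *Ythdc1* turned to 0.03 and 0.07, and that of *Ythdf3* was -0.10. Directions for *Fto* and *Ythdc1* are accordingly not given.

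**Figure D3:**
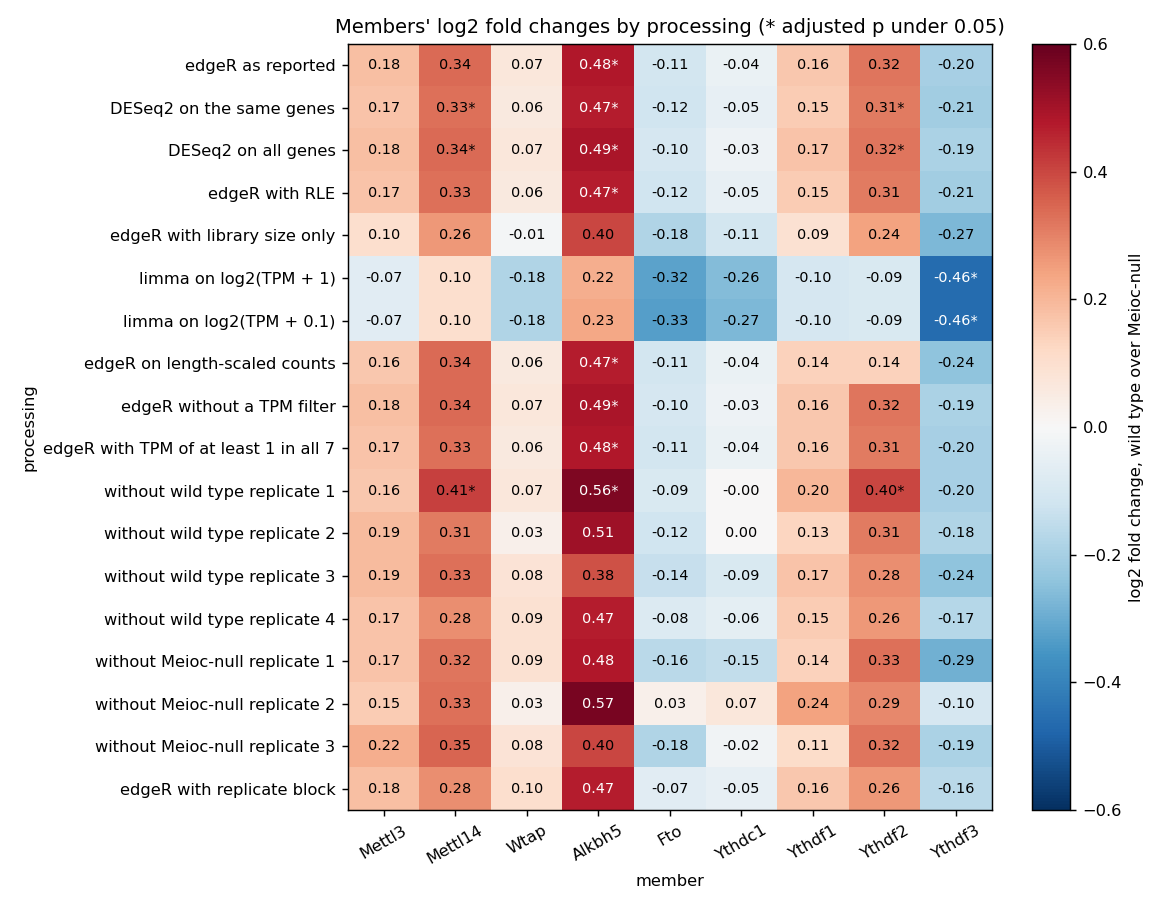
Log2 fold change (wild type over *Meioc*-null) of each member in the reported edgeR fit and in 17 alternatives; color gives the value and an asterisk an adjusted p under 0.05. *Alkbh5*, *Mettl14* and *Ythdf3* keep their sign in all 17, and *Alkbh5* is called in 7.

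The transcripts that make up each gene were compared by their share of the gene's TPM, which the choice of the members did not use. *Mettl3* and *Alkbh5* have 1 transcript each in the deposited tables, and the other 7 have 2 to 4 with a mean of at least 0.5 TPM. For the leading transcript of the 7, the two-sided exact permutation test over all 35 assignments of the libraries gave p from 0.229 to 0.743 (adjusted p from 0.48 to 0.743). The smallest p that 4 against 3 libraries allow is 0.0571, so this test could not pass 0.05 and does not show that shares were alike. Of all 21 transcripts of these genes, the groups did not overlap in the share of TPM for 2, *Ythdc1*-201 and *Fto*-204. Neither is a leading transcript, and neither was tested. For any transcript, 2 of the 35 assignments would separate the groups fully, and no such share was computed over the transcripts of other genes. The count is therefore a description only.

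For *Ythdf2* the long transcript *Ythdf2*-203 held 92.1%, 92.6%, 89.6% and 90.9% of the TPM in wild type and 94.8%, 83.5% and 67.3% in null. Of the gene's estimated counts it held 98.4% to 98.9% in wild type and 99.2%, 97.2% and 93.4% in null. The null libraries were thus both above and below the wild-type range, and null replicate 3 was the lowest. The exon-skipping *Ythdf2*-201 was at 2.46 TPM in null replicate 1, 9.13 TPM in replicate 2 and 19.8 TPM in replicate 3, against 3.62 to 5.57 TPM in wild type. Those values rest on few reads, from 13.9 to 115 estimated counts per library. The difference in the TPM share of *Ythdf2*-203 was 9.43 percentage points with all libraries (exact permutation p = 0.286) and 2.15 without null replicate 3. In the share of estimated counts it was 2.02 percentage points with all libraries.

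A similar dependence on 1 library was seen for *Wtap*. *Wtap*-203 held 66.8% to 68.9% of the TPM in wild type, and 67.7%, 65.3% and 46.0% in null replicates 1 to 3. *Wtap*-201, at 2051 bases close in length to *Wtap*-203 (2060 bases) and with 8 exons as well, was at 31.9 TPM in null replicate 3. It was listed at 0 in the other 6 libraries. Only 3 of the 31-base words of *Wtap*-203 are its own, so how reads were divided between these transcripts is uncertain. Without null replicate 3 the groups differed by 1.21 percentage points in the share of *Wtap*-203.

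Of the transcripts of *Ythdc1*, *Ythdc1*-201 held 40.3%, 20.5%, 17.6% and 17.7% of the TPM in wild type and 11.3%, 14.9% and 9.37% in null. The groups did not overlap, in TPM or in estimated counts, and wild-type replicate 1 was far above the rest; 50 of its 31-base words are its own. *Ythdc1*-203, the leading transcript, held 51.2% to 62.6% of the TPM in wild type and 81.8%, 54.0% and 63.5% in null. *Ythdc1*-202, which lacks the 54-base exon, held 8.53% to 26.2% in wild type and 6.89%, 31.1% and 27.2% in null. *Ythdc1*-203 has only 2 words of its own, so its share is uncertain too. In *Ythdf3* the transcript with the 33-base exon, *Ythdf3*-202, held 23.4% to 34.9% of the TPM in wild type and 21.4%, 34.3% and 46.0% in null. *Ythdf1*-202, with the 81-base exon, held 0% to 3.39% in wild type and 0%, 7.05% and 12.1% in null. In both, the null libraries spread on either side of wild type or beyond it, and null replicate 3 was the highest.

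*Mettl14*-201 held 91.0% to 94.7% of the TPM in wild type and 89.8% to 93.3% in null. *Fto*-201, the leading transcript of its gene, held 74.4% to 80.3% in wild type and 65.6% to 82.9% in null, with null replicate 2 the lowest. The minor *Fto*-204 held 3.51%, 3.76%, 3.06% and 2.91% in wild type and 4.63%, 6.17% and 4.78% in null. All null libraries were above all wild-type libraries for it, on 21.7 to 54.3 estimated counts per library.

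**Figure D4:**
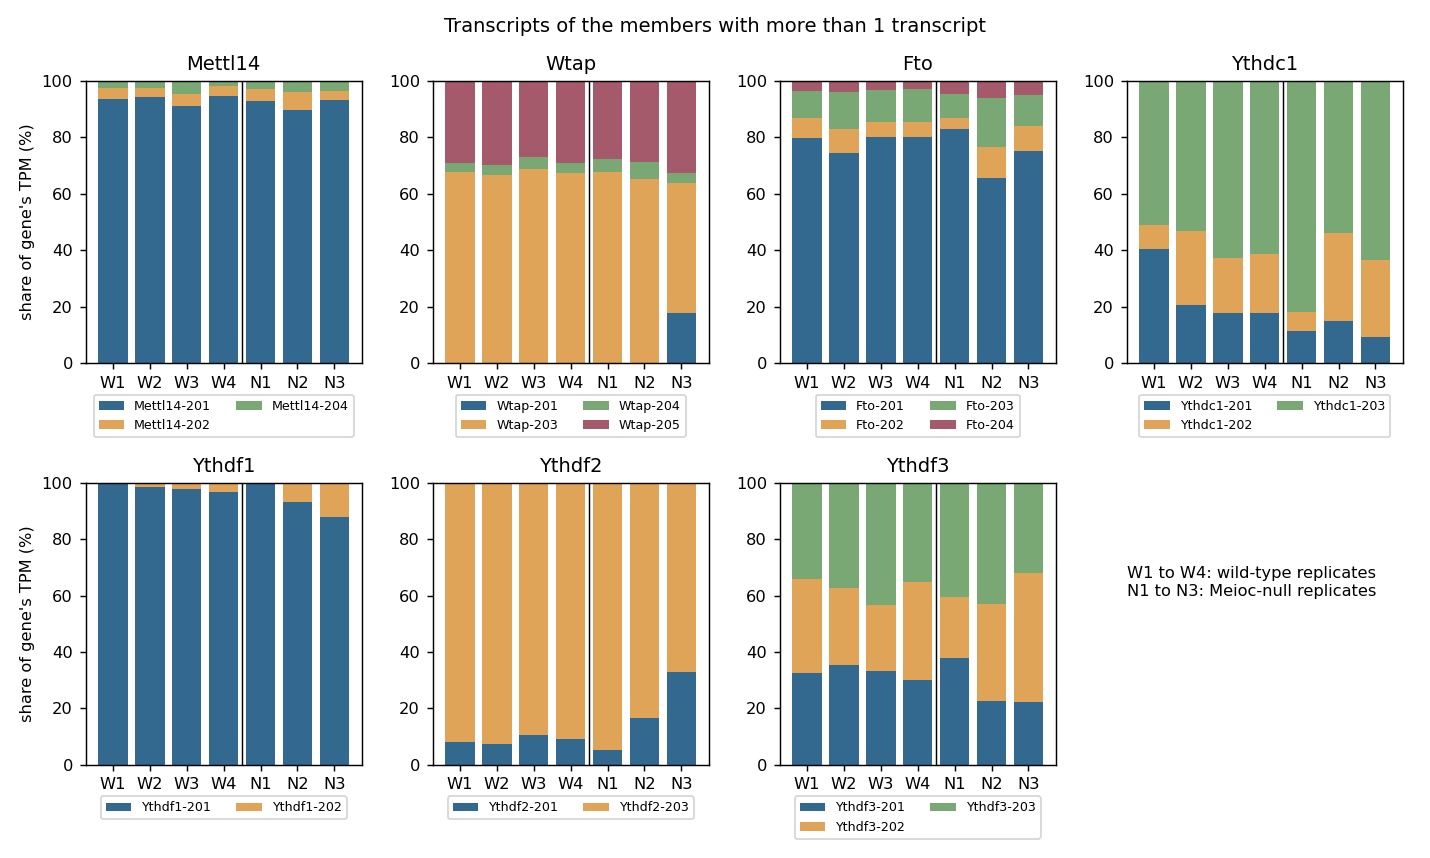
Share of each gene's TPM (%) by transcript, stacked to 100%, in wild-type replicates 1 to 4 (W1 to W4) and *Meioc*-null replicates 1 to 3 (N1 to N3), for the 7 members with more than 1 transcript. *Wtap*-201 appears in N3 only, and *Ythdf2*-201 is largest in N3.

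Other genes of the pathway were read from 4 lists of 30 genes in all, every one of which was tested. Calls were made for 2 of the 30, both with wild type as the higher group (6.67%, against 11.1% of all tested genes), and their median log2 fold change was 0.04. Both calls fell among the 12 other m6A readers. *Ythdc2*, which encodes the helicase partner of MEIOC, was at 112, 163, 175 and 194 CPM in wild type, against 106, 91.5 and 95.2 CPM in null (log2 fold change 0.73 ± 0.163, edgeR adjusted p = 0.0242). *Fmr1*, which encodes the RNA-binding protein FMRP, was at 187, 224, 224 and 263 CPM in wild type, against 159, 157 and 168 CPM in null (0.48 ± 0.108, edgeR adjusted p = 0.0247). Wild-type replicate 1 was the lowest of its group for both genes, and both calls were lost without any one of wild-type replicates 2, 3 or 4 or null replicates 2 or 3 (edgeR adjusted p from 0.0542 to 0.0874). On log2(TPM + 1) neither was called (limma adjusted p = 0.0531 for *Ythdc2* and 0.155 for *Fmr1*).

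At the other end of that list stood *Igf2bp2*, which encodes an mRNA-stabilizing reader, at 16.5, 14.0, 11.7 and 12.4 CPM in wild type, against 15.6, 25.6 and 21.4 CPM in null. Its log2 fold change was -0.61 ± 0.181, outside the threshold (edgeR adjusted p = 0.0573), and it was called by DESeq2 on the same genes (adjusted p = 0.0153). Calls also came from DESeq2 on all genes, library size only, limma on both TPM scales, and edgeR without wild-type replicate 1 or null replicate 1. The other alternatives did not call *Igf2bp2*. *Igf2bp1* and *Igf2bp3* had log2 fold changes of -0.55 and -0.42 (edgeR adjusted p = 0.208 and 0.127), and were chosen for mention after their values were seen.

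The 5 other subunits of the writer complex gave 0 calls by edgeR, from *Rbm15* at 0.15 ± 0.105 to *Cbll1* at -0.29 ± 0.128 (edgeR adjusted p = 0.351 and 0.158); 1 of the 5, *Cbll1*, was under an unadjusted p of 0.05. *Rbm15* encodes an RNA-binding adaptor of the complex and *Cbll1* its ubiquitin ligase subunit HAKAI. The 6 other RNA m6A methyltransferases and their cofactors gave 0 calls by edgeR and 0 at an unadjusted p under 0.05, from *Mettl5*, the 18S rRNA methyltransferase gene, at 0.29 ± 0.187 to *Pcif1*, the cap methyltransferase gene, at -0.16 ± 0.154. Of the 7 other AlkB family genes 0 were called by edgeR and 3 were under an unadjusted p of 0.05, with 30.3% of all tested genes as the background of these counts; they ran from *Alkbh7* at 0.45 ± 0.324 to *Alkbh1* at -0.33 ± 0.138 (edgeR adjusted p = 0.373 and 0.145).

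**Figure D5:**
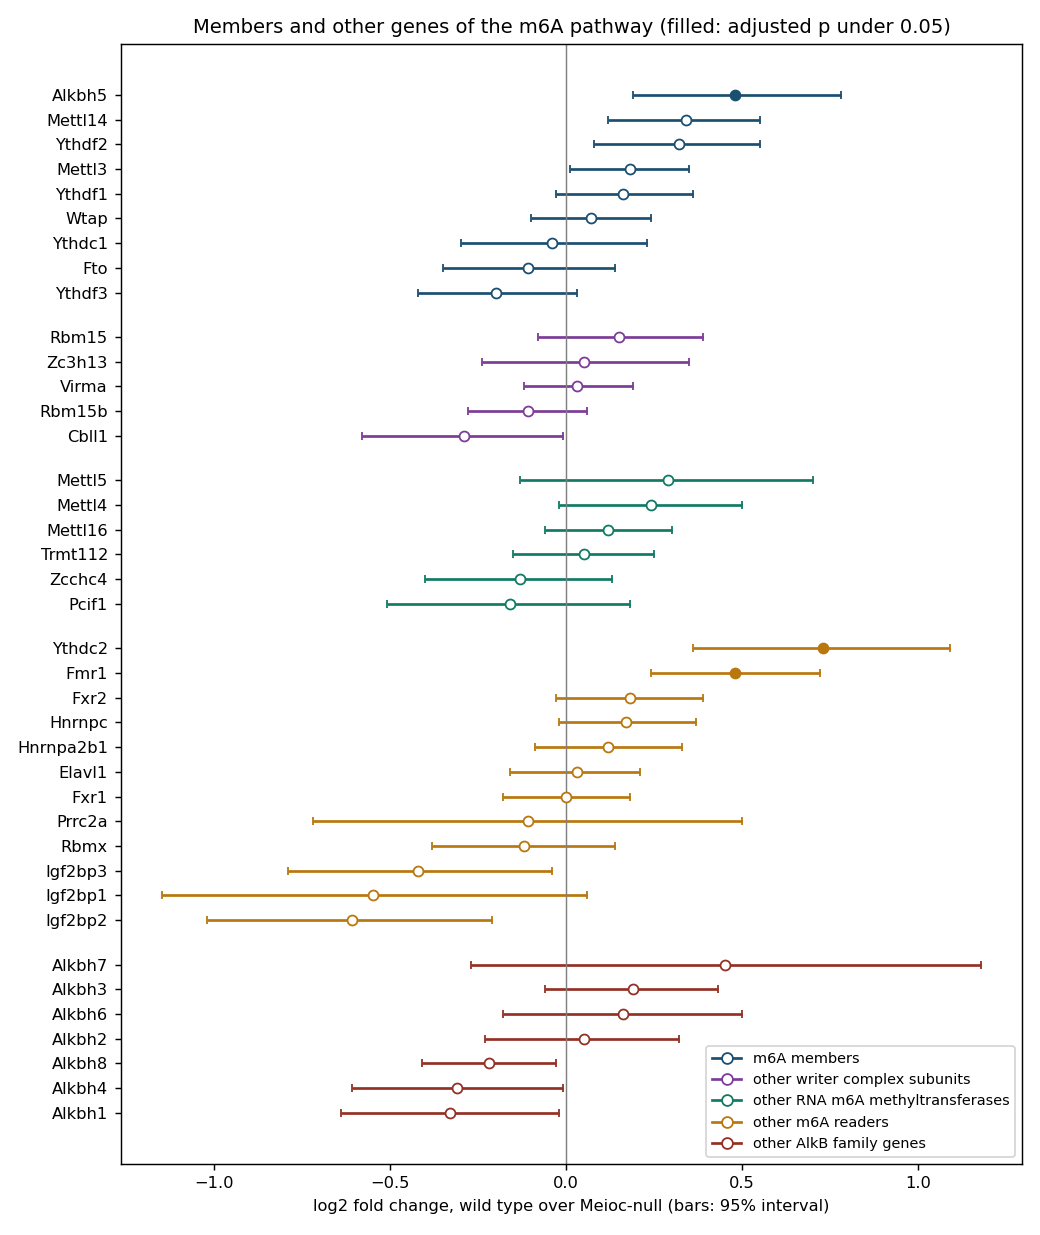
Log2 fold change (wild type over *Meioc*-null) with its 95% interval for the 9 members and the 30 other pathway genes, by list; filled points have an adjusted p under 0.05. *Alkbh5*, *Ythdc2* and *Fmr1* are filled, all to the right of 0.

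The genes whose CPM followed *Alkbh5* most closely over the 7 libraries, among 10242 others with a mean of at least 10 CPM, were *Wfs1* (Pearson r = 0.991 of log2(CPM + 1)), *Dennd4b* (r = 0.987) and *Sdk1* (r = 0.984). The points share their libraries and the difference between the groups, and many genes were searched, so high values are a description only. *Sdk1*, a cell adhesion gene, was at 28.4, 33.6, 53.9 and 46.3 CPM in wild type, against 17.3, 22.1 and 13.9 CPM in null (log2 fold change 1.20 ± 0.233, edgeR adjusted p = 0.0176). *Wfs1* and *Dennd4b* had log2 fold changes of 0.44 and 0.46 and were not called (edgeR adjusted p = 0.0983 for each). On log2(TPM + 1), *Dennd4b* and *Wfs1* stayed among the 3 nearest genes, and *Sdk1* ranked at place 52.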

How the data were processed

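RNA-seq of 7 testes samples was grouped by the genotype in the labels. The authors trimmed reads with cutadapt 1.8 and ran kallisto 0.44.0, with bias correction and strand, on the transcripts of GENCODE Basic vM15. For each protein-coding transcript, the deposited tables give an estimated count and a TPM. TPM was renormalized by the authors over protein-coding transcripts, so it keeps no depth.

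Both values were added up over the transcripts of a gene through GENCODE vM21 (GRCm38), which also gave positions and sequences. Of 43139 transcripts, 119 were not matched, with 0.247% to 0.282% of counts. Counts were rounded. Genes that reached 1 TPM in 3 or more samples were tested by the quasi-likelihood test of edgeR 4.0.16 with TMM in R 4.3.3, adjusted over all tested genes by Benjamini-Hochberg. The alternatives were DESeq2 1.42.0, limma 3.58.1 on log2 of the TPM plus 1 or 0.1, RLE, library size only, length-scaled counts, other filters, each library left out and a replicate block. The fits were tested on simulated data. Every pair of libraries differed by more than counting noise. Over all tested genes, wild-type replicate 1 lay as near to null replicate 1 (Pearson r = 0.987 of log2(CPM + 1)) as to its own group (r = 0.983 to 0.988). Its r with null replicates 2 and 3 was 0.974 and 0.98.

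Members and lists were chosen with earlier results of these data known. Named were all members, called list genes, the extremes of each list, and the 3 genes most like the called member; *Igf2bp1*, *Igf2bp3*, *Alkbh4* and *Alkbh8* fall outside this rule and were named after their values were seen. Precision is limited by 3 and 4 pups per group, and PCR copies were not removed, so counts understate the counting error. The authors' comparisons were not used.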

Additional observations from a re-analysis of the deposited data

How the results depend on the processing

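The reported fit called 1513 genes, 1 member and 2 other pathway genes. DESeq2 on the same genes called 2331 genes, and limma called 2522 on log2(TPM + 1) and 2506 on log2(TPM + 0.1), where 443 (17.7%) were higher in wild type. Both DESeq2 fits called 3 members, *Alkbh5*, *Mettl14* and *Ythdf2*, and library size only called 0. Over all genes, DESeq2 called 2331 of 13630 on the same genes and 2228 of 19310 on all genes. Library size only called 1713 of 13630. Of the 30 other pathway genes, both TPM scales called 4, all lower in wild type (*Alkbh1*, *Alkbh4*, *Alkbh8* and *Igf2bp2*). Over all 13630 tested genes, log2(TPM + 1) called 2522, of which 2082 were lower in wild type. These counts are therefore not a result about the m6A genes. Leaving out 1 library gave 129 to 2177 genes, 0 to 3 members and 0 to 5 other pathway genes. The lowest, 129, was without null replicate 3, and the highest, 2177, without wild-type replicate 1; of the others, only without null replicate 1 were more than 548 called (2092). With the replicate block, in which wild-type replicate 4 has no partner and drops out of the contrast, 109 genes, 0 members and 0 other pathway genes were called. The labels do not say that the numbers pair the samples. Deviations of same-numbered libraries from their group means correlated at -0.06, -0.10 and -0.23, and 0 of 3 pairs passed 0.1. Those of differently numbered libraries correlated at -0.09 to 0.20. With so few libraries, deviations from a group mean constrain each other, so these values cannot exclude a pairing.

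On both TPM scales *Mettl3* (-0.07), *Wtap* (-0.18), *Ythdf1* (-0.10), *Ythdf2* (-0.09) and *Rbm15* (-0.09) had the opposite sign; there the median of all genes was -0.23 and -0.25. *Wtap* was at -0.01 with library size only. Leaving out 1 library gave -0.18 to 0.03 for *Fto*, -0.15 to 0.07 for *Ythdc1* and -0.28 to 0.00 for *Pcif1*, and -0.373 to 8.31 percentage points for the share of *Fto*-201 and -4.42 to 1.12 for that of *Ythdf3*-203; the sign changed without null replicate 2, and for *Ythdc1* (0.00) also without wild-type replicate 2. The causes were not tested. Each group holds few pups, so modest differences stay within the intervals given, and no protein or m6A level was measured here.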
